A study of Mus musculus with 2 samples.

Results

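Genes that handle iron and heme were read across the cell classes of 1 single-cell RNA-seq library. The 9 of 32287 measured features, chosen by name, were Hmox1, Slc40a1, Slc11a1, Fth1, Ftl1, Tfrc, Trf, Cp and Hp, and each was matched to 1 feature. The library held GFP+ cells sorted from the tibialis anterior and gastrocnemius muscles of S100GFPtg mice labelled WT, 2 months old and male, taken 7 days after crush of the sciatic nerve, when the muscle has lost its innervation. Enhanced GFP in these mice is driven by the S100B promoter, which marks Schwann cells among others, and only 66 of the cells kept here fell in the Schwann cell class. The study's methods state that male mice were pooled for sequencing, while the submitters' design text speaks of a single injured mouse, and no label separates animals, so the library counts as 1 sample. No uninjured library was used here, so every comparison is between cell classes at 7 days.

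The library held 36400 barcodes and 170648616 unique molecular identifiers (UMIs, 1 for each captured RNA molecule). Classes were gated by marker UMIs among the 8701 barcodes with at least 5000 UMIs and under 10% mitochondrial UMIs, whose median was 11624 UMIs, and 17 classes held 6801 of them. A class is called by its gate genes, so that the names stand for barcodes that are macrophage-like, fibroblast-like and so on by those genes. In 15 of the 17 classes the genes of the gate were highest in the class they define, which gating on those genes favors. In the others, the Smoc2 gate genes were higher in Apod Tenm2 Col28a1 fibroblasts (8178 CPM, that is UMIs scaled to a total of 1000000) than in the Smoc2 class itself (4604 CPM), and the MHC class II gate genes were higher in Cd209a Flt3 dendritic cells (59092 CPM) than in MHC class II high C1q macrophages (41229 CPM). RNA of other lineages differed between classes. The 6 fibroblast markers summed to between 42.6 and 71.2 CPM in the 7 myeloid classes, against 23911 to 40959 CPM in the 5 fibroblast subsets, and the 10 myeloid markers to between 51.9 and 127 CPM in those subsets, against 3647 to 9923 CPM in myeloid classes. The fibroblast markers were higher in some other classes, at 46073 CPM in tenocytes, 1551 CPM in Schwann cells, 784 CPM in smooth muscle cells and pericytes and 585 CPM in satellite cells and myoblasts, but at 64.1 CPM in endothelial cells. Hemoglobin RNA ranged from 5.86 CPM in Cd209a Flt3 dendritic cells to 1604 CPM in MHC class II high C1q macrophages, and its part in the results was not tested. Of the barcodes, 372 had the same sequence as a barcode of the GFP- library, 84 of them among the barcodes kept.

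Iron enters most cells as iron-laden transferrin (Trf) through the transferrin receptor (Tfrc), is stored in the ferritin shell built of heavy (Fth1) and light (Ftl1) chains, and leaves through ferroportin (Slc40a1), the exporter that works with copper ferroxidases such as ceruloplasmin (Cp). Macrophages also take iron from dying red cells and other debris, where heme oxygenase 1 (Hmox1) breaks heme down to iron, carbon monoxide and biliverdin, Slc11a1 (Nramp1) moves divalent metal out of phagosomes, and haptoglobin (Hp) carries free hemoglobin to the scavenger receptor Cd163. In damaged muscle, inflammatory macrophages are known for holding iron and repair-type macrophages for releasing it.

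Of the 9 transcripts, 4 carry iron responsive elements, the hairpins that bind iron regulatory proteins when iron is scarce. They are shown because iron acts on these genes through translation (elements in the 5′ end) or RNA decay (elements in the 3′ end), and UMI counts see only RNA levels. A search of the GENCODE M39 transcripts (GRCm39) for a C, 5 bases, CAGTGN and 5 bases pairing with the first 5 (G-U pairs allowed, transcript strand) found 1 element in the 5′ untranslated region (UTR) of each of Fth1, Ftl1 and Slc40a1 and 4 in the 3′ UTR of Tfrc. A match was present in 0.116% of 20696 annotated 5′ UTRs and in 0.598% of 20721 3′ UTRs. No match was found in these windows of the other members. Each element lies within 1 exon (exon 1 for the first 3, exon 19 for Tfrc), and capitals mark the 6-base loop.
Fth1, chr19:9960096-9960125, plus strand: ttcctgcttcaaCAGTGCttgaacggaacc
Ftl1, chr7:45109202-45109231, minus strand: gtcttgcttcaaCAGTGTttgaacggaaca
Slc40a1, chr1:45964624-45964653, minus strand: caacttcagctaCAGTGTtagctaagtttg
Tfrc, first element, chr16:32450037-32450066, plus strand: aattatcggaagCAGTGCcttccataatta
Tfrc, second element, chr16:32450416-32450445, plus strand: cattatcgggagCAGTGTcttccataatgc
Tfrc, further element, chr16:32450481-32450510, plus strand: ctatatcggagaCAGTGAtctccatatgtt
Tfrc, last element, chr16:32450528-32450557, plus strand: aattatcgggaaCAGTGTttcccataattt

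Each level is the CPM of a gene over the summed cells of a class. UMIs of 3′ libraries are 1 per molecule and are not scaled by length. Brackets give exact Poisson 95% intervals, which cover counting error only, since 1 library gives no spread between animals and allows no p-value. For the share of cells in which a gene was seen, every cell was first thinned to 5000 UMIs, so that classes of different depth could be set side by side.

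**Figure D1:**
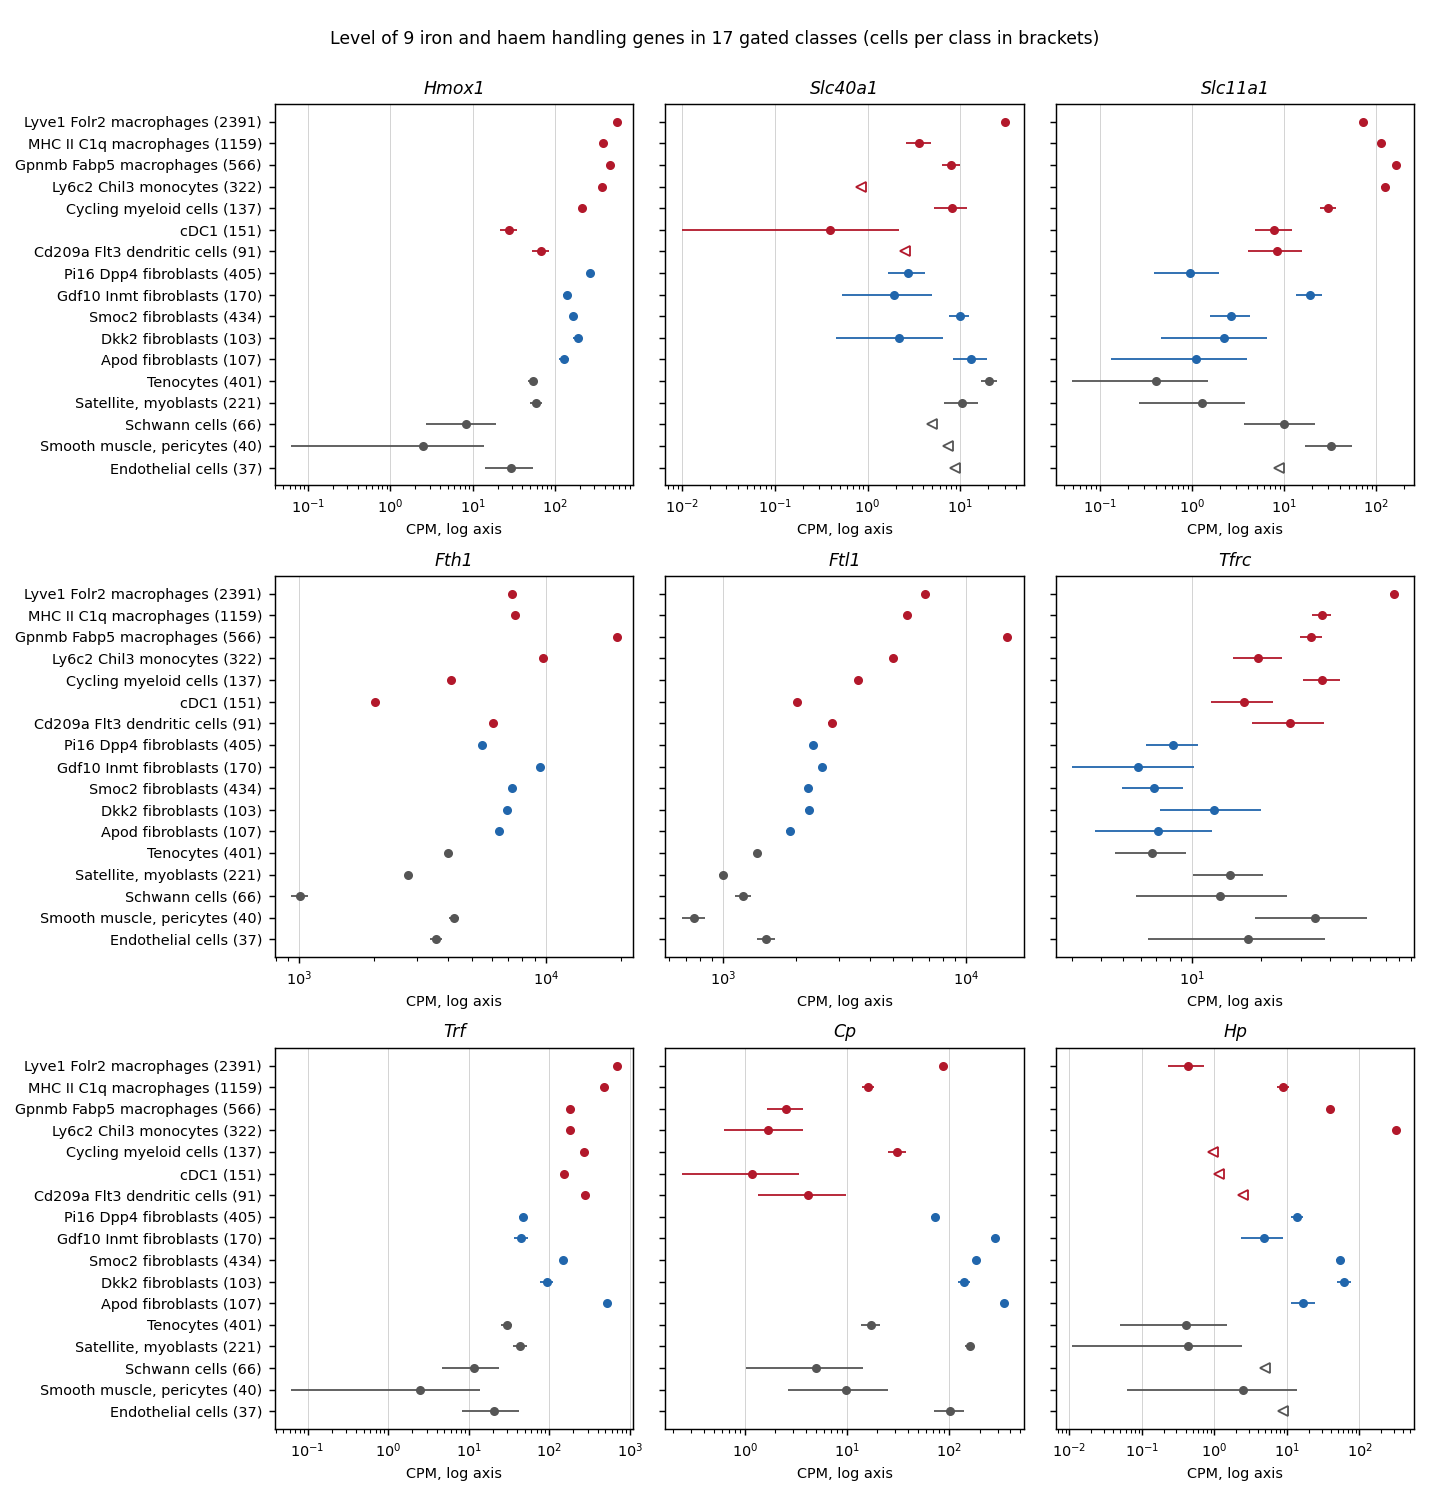
CPM (log axis, 1 panel per gene) in 17 gated classes, myeloid in red, fibroblasts in blue and others in gray, with 95% Poisson intervals. Open triangles mark classes with 0 UMIs, drawn at 3 counts. Hmox1, Tfrc and Trf peaked in Lyve1 Folr2 macrophages, Fth1, Ftl1 and Slc11a1 in Gpnmb Fabp5 macrophages, Hp in Ly6c2 Chil3 monocytes and Cp in Apod Tenm2 Col28a1 fibroblasts.

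Hmox1, the gene of heme breakdown (chr8:75820241-75827217 in GRCm39), was high in every macrophage and monocyte class, at 558 CPM (549 to 566) in Lyve1 Folr2 macrophages, 457 (444 to 471) in Gpnmb Fabp5 macrophages, 377 (366 to 388) in MHC class II high C1q macrophages and 369 (350 to 390) in Ly6c2 Chil3 monocytes. The last pair did not differ beyond counting error. Next in order stood Pi16 Dpp4 fibroblasts, the adventitial type, at 264 CPM (253 to 276), above cycling myeloid cells at 213 CPM. The other fibroblast subsets lay between 128 and 187 CPM. Dendritic cells stood far below the macrophages, with 67.0 CPM in the Cd209a Flt3 class and 27.3 CPM in cDC1, and Schwann cells at 8.26 CPM (2.68 to 19.3) were among the lowest. Hmox1 was seen in most macrophages and in many fibroblasts. A UMI was found in 86.1% of thinned Lyve1 Folr2 cells (96.3% unthinned), 75.8% of Gpnmb Fabp5 cells, 65.6% of MHC class II cells, 66.1% of Ly6c2 Chil3 cells and 52.8% of Pi16 Dpp4 fibroblasts, against 1.52% of Schwann cells, whose median depth was 8277 UMIs against 12073 in the Lyve1 class. The median Lyve1 Folr2 cell held 2 Hmox1 UMIs in 5000, the 10% of cells with the most held 6 or more, and the highest cell held 52.

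Iron export was far more restricted. Slc40a1 reached 30.3 CPM (28.3 to 32.3) in Lyve1 Folr2 macrophages, and 273 of 2391 thinned cells (11.4%, 20.5% unthinned) held a UMI. It was lower, at 7.92 CPM (6.29 to 9.84) in Gpnmb Fabp5 macrophages and 3.62 CPM (2.62 to 4.87) in MHC class II high C1q macrophages. No Slc40a1 UMI was seen in 322 Ly6c2 Chil3 monocytes, which allows up to 0.932% of cells with a UMI at this depth and does not limit the share that express the gene, nor in 91 Cd209a Flt3 dendritic cells. Among myeloid classes the exporter was thus highest by far in Lyve1 Folr2 macrophages, and uneven within them. Lyve1 Folr2 cells that had not passed the MHC class II gate (1546 cells) held 40.5 CPM (37.7 to 43.5) and those that had (845 cells) 14.0 CPM (11.9 to 16.3), a log2 ratio of -1.53 (95% interval -1.78 to -1.29). Hmox1 hardly differed between the same cells, at 565 and 546 CPM, and Trf was level at 691 and 688 CPM, while Cp was 101 and 68.6 CPM, lower with the gate (-0.55, -0.67 to -0.43). Hemoglobin RNA was 484 CPM in the cells without the MHC class II gate and 28.9 CPM in those with it, and its part was not tested.

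Outside the myeloid cells Slc40a1 was highest in tenocytes, the fibroblasts of tendon, at 20.5 CPM (16.7 to 24.9), with 10.2% of thinned cells holding a UMI. Apod Tenm2 Col28a1 fibroblasts held 13.1 CPM (8.40 to 19.5), satellite cells and myoblasts 10.3 CPM (6.60 to 15.3) and Smoc2 Cxcl14 Hsd11b1 fibroblasts 9.79 CPM (7.52 to 12.5), and neighbors from tenocytes down to this class did not differ beyond counting error. Pi16 Dpp4 fibroblasts, high in Hmox1, held only 2.70 CPM. In Gpnmb Fabp5 macrophages the low level rested on few cells, because the 1% of cells with the most UMIs held 85.2% of the 81 Slc40a1 UMIs, against 17.7% in Lyve1 Folr2 macrophages.

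Slc11a1, the phagosomal metal transporter, was lowest where the exporter was highest among the 4 macrophage and monocyte classes. It stood highest in Gpnmb Fabp5 macrophages at 165 CPM (157 to 173), followed by Ly6c2 Chil3 monocytes at 123 CPM (112 to 135) and MHC class II high C1q macrophages at 112 CPM (106 to 118), and lower in Lyve1 Folr2 macrophages at 72.6 CPM (69.6 to 75.7). The monocytes and the MHC class II class did not differ beyond counting error. Both dendritic cell classes were low (7.80 CPM in cDC1 and 8.37 CPM in the Cd209a class), and tenocytes at 0.406 CPM. A UMI was present in 53.0% of thinned Gpnmb Fabp5 cells, 28.6% of Lyve1 Folr2 cells and 0.499% of tenocytes, with median depths of 17530, 12073 and 10995 UMIs. Among fibroblasts the Gdf10 Inmt subset stood out with 18.9 CPM (13.4 to 25.8) in 30 of 170 unthinned cells, against 0.945 to 2.64 CPM in the other 4 subsets, and its 10 myeloid markers summed to 127 CPM, against 51.9 to 124 CPM in those subsets. The part of myeloid RNA in this level was not tested.

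Ferritin RNA was abundant in every class, and its level in Gpnmb Fabp5 macrophages stood apart. Fth1 was 19268 CPM there, against 9690.5 in Ly6c2 Chil3 monocytes, 7494 in MHC class II high C1q macrophages and 7242 in Lyve1 Folr2 macrophages. Ftl1 was 14739 CPM, against 4974, 5690.2 and 6746 CPM in the same order. Together the chains took 3.40% of all UMIs of the Gpnmb Fabp5 class and between 1.32% and 1.47% in the other 3 macrophage and monocyte classes. The median Gpnmb Fabp5 cell held 83.5 Fth1 UMIs in 5000 and the median Lyve1 Folr2 cell 34, so the whole distribution and not a tail was shifted. Among stromal cells Fth1 was highest in Gdf10 Inmt fibroblasts at 9428 CPM, above Lyve1 Folr2 macrophages, while Ftl1 lay between 1879.6 and 2555 CPM in all 5 subsets. Schwann cells held 1003 CPM of Fth1, the lowest of the 17 classes, and 1205 CPM of Ftl1.

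The balance of the chains separated myeloid classes from fibroblasts, whereas the level of each chain overlapped between them. Ferritin heavy chain oxidizes iron and the light chain aids its mineral core, so the ratio describes the kind of shell a cell can build, as far as RNA goes. Lyve1 Folr2 macrophages held 1.07 Fth1 UMIs per Ftl1 UMI (95% interval 1.07 to 1.08), cDC1 1.01 (0.970 to 1.05), and MHC class II high C1q and Gpnmb Fabp5 macrophages 1.32 and 1.31. Ly6c2 Chil3 monocytes at 1.95 (1.91 to 1.98) and Cd209a Flt3 dendritic cells at 2.17 (2.08 to 2.26) lay between the macrophages and the stroma. The 5 fibroblast subsets ranged from 2.35 to 3.69, and smooth muscle cells and pericytes reached 5.61 (4.96 to 6.35). Among the classes shown, Schwann cells at 0.833 (0.746 to 0.929) were the only one with more light than heavy chain UMIs. Mature dendritic cells, a gated class of 15 cells that is not shown, also held more light chain, with 452 Fth1 and 1471 Ftl1 UMIs. The pseudogene feature Ftl1-ps1, near-identical to Ftl1, held 0.651% to 2.92% as many UMIs as Ftl1, and reads that fit both could not be assigned, so the absolute level of Ftl1 is uncertain.

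**Figure D2:**
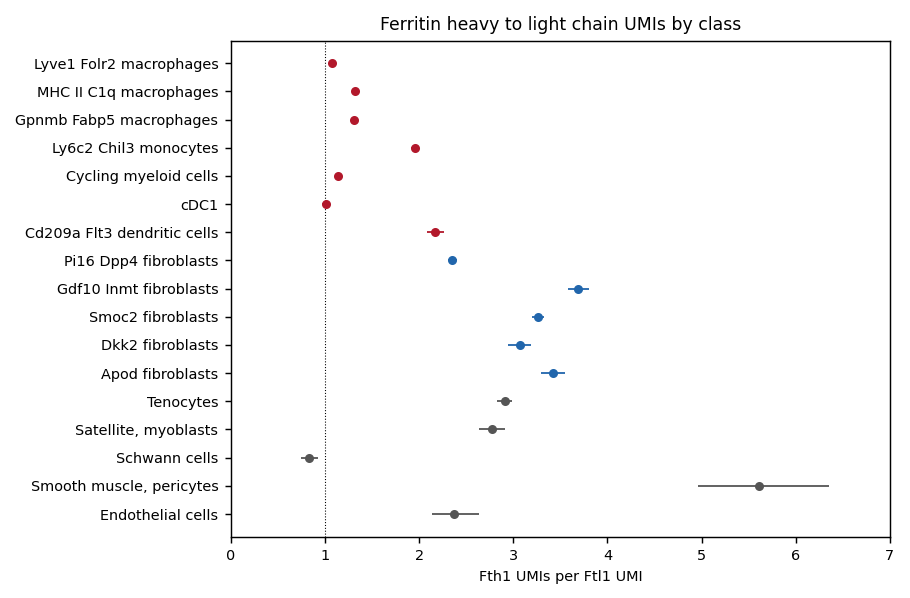
Fth1 UMIs per Ftl1 UMI in 17 gated classes (linear axis, points with exact 95% intervals, dotted line at equal UMIs), colored as myeloid red, fibroblasts blue and others gray. The 7 myeloid classes shown sit from 1.01 to 2.17 and the 5 fibroblast subsets from 2.35 to 3.69.

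Tfrc, the receptor for iron uptake (chr16:32427556-32451612), was, like the exporter, highest in Lyve1 Folr2 macrophages at 76.0 CPM (73.0 to 79.2), above MHC class II high C1q macrophages (36.8 CPM, 33.5 to 40.4) and Gpnmb Fabp5 macrophages (33.1 CPM, 29.7 to 36.9). Ly6c2 Chil3 monocytes held 19.4 CPM (15.1 to 24.6), and cycling myeloid cells, in which demand for iron is known to be high, 36.8 CPM (30.4 to 44.2). All fibroblast subsets and tenocytes lay between 5.81 and 12.5 CPM and no neighbors among them differed beyond counting error. Smooth muscle cells and pericytes (40 cells) held 34.4 CPM (18.8 to 57.7). A UMI was present in 30.5% of thinned Lyve1 Folr2 cells (51.4% unthinned) and 2.99% of tenocytes.

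Trf, the gene of the plasma iron carrier, was the most abundant member after ferritin in the Lyve1 Folr2 class, at 690 CPM (680 to 699), with a UMI in 93.7% of thinned cells. MHC class II high C1q macrophages held 478 CPM (466 to 491), cycling myeloid cells and Cd209a Flt3 dendritic cells 273 and 279 CPM, and Ly6c2 Chil3 and Gpnmb Fabp5 cells 184 and 183 CPM. The Lyve1 Folr2 class was thus the highest of all 17 in carrier, receptor and exporter. Outside the myeloid cells Apod Tenm2 Col28a1 fibroblasts stood apart with 518 CPM (485 to 552), against 148 CPM in Smoc2 Cxcl14 Hsd11b1, 93.3 in Dkk2 Bmper Lsamp, 45.0 in Gdf10 Inmt and 47.0 CPM in Pi16 Dpp4 fibroblasts, for the last a log2 ratio of 3.46 (3.28 to 3.64). The high levels were spread differently over cells. Trf was in nearly all Lyve1 Folr2 cells at a median of 3 UMIs in 5000, whereas 74 of 107 thinned Apod fibroblasts held none and 18 cells with at least 5 UMIs held 87.1% of the class's thinned Trf UMIs. Schwann cells, known as a source of transferrin in nerve, held 11.6 CPM (4.65 to 23.8) here.

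Cp, the ferroxidase, was highest in fibroblast subsets and uneven over the other classes. It stood highest in Apod Tenm2 Col28a1 fibroblasts at 348 CPM (322 to 376), followed by Gdf10 Inmt fibroblasts at 283 CPM (260 to 307) and Smoc2 Cxcl14 Hsd11b1 fibroblasts at 186 CPM (175 to 197). Satellite cells and myoblasts held 161 CPM (145 to 178) and Dkk2 Bmper Lsamp fibroblasts 141 CPM (122 to 163), which did not differ beyond counting error, and Pi16 Dpp4 fibroblasts only 72.8 CPM. Lyve1 Folr2 macrophages held 88.3 CPM (85.0 to 91.7), a level far above the 16.2 CPM of MHC class II high C1q macrophages, 2.54 CPM of Gpnmb Fabp5 macrophages and 1.71 CPM of Ly6c2 Chil3 monocytes. Cycling myeloid cells held 31.3 CPM, and stromal classes were not all high, with tenocytes at 17.3 CPM, smooth muscle cells and pericytes at 9.83 CPM and Schwann cells at 4.96 CPM. Endothelial cells (37 cells) held 101.9 CPM (71.0 to 141.8). The 6 fibroblast markers summed to 57.6 CPM in the Lyve1 class and 60.9 CPM in the Gpnmb class, in barcodes from which those passing 2 lineage gates had been left out, and their part in the Cp level was not tested. A UMI was in 27.2% of thinned Lyve1 Folr2 cells (45.0% unthinned) and in 1.32% of cDC1, whose median depth was 16680 UMIs.

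Hp was the member with the sharpest single peak. Ly6c2 Chil3 monocytes held 321 CPM (303 to 341), with a UMI in 52.2% of thinned cells (68.3% unthinned). Gpnmb Fabp5 macrophages held 39.1 CPM (35.4 to 43.1), MHC class II high C1q macrophages 8.83 CPM (7.22 to 10.7) and Lyve1 Folr2 macrophages 0.426 CPM (0.227 to 0.728). No UMI was seen in 137 cycling myeloid cells or in 151 cDC1, which allows up to 2.19% and 1.99% of cells with a UMI and again says nothing of lower expression. Of the 4 macrophage and monocyte classes, the highest in Trf, Tfrc, Cp and Slc40a1 was thus the lowest in Hp. Fibroblasts also held Hp, up to 61.7 CPM (49.2 to 76.4) in Dkk2 Bmper Lsamp and 53.1 CPM (47.7 to 59.1) in Smoc2 Cxcl14 Hsd11b1 fibroblasts, but in few cells. The 1% of fibroblasts with the most UMIs held 74.2% of their 578 Hp UMIs, against 8.71% in Ly6c2 Chil3 monocytes.

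**Figure D3:**
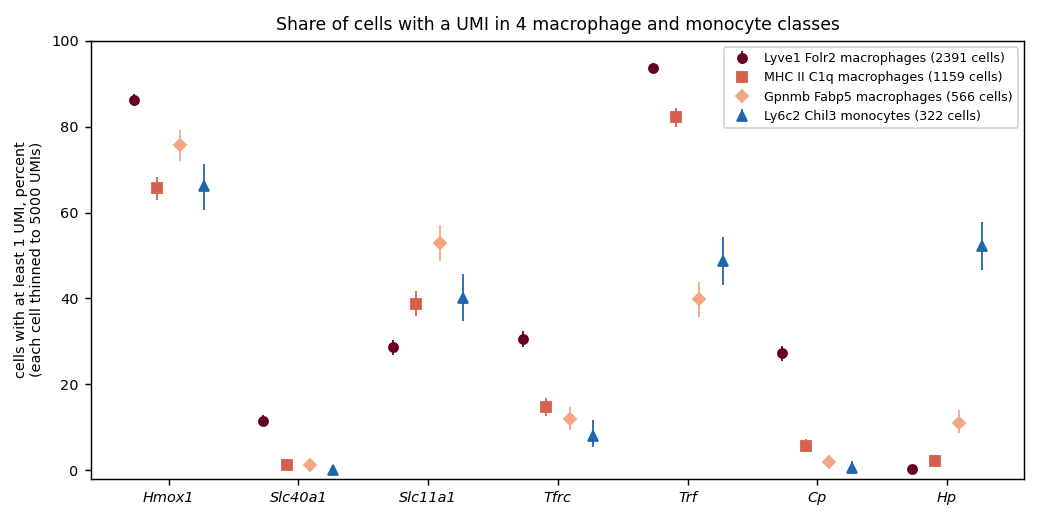
Percent of cells with at least 1 UMI of 7 members (Fth1 and Ftl1, present in nearly every cell, are left out) in 4 macrophage and monocyte classes after thinning each cell to 5000 UMIs, with exact 95% intervals. Cp and Slc40a1 are seen mainly in Lyve1 Folr2 cells, at 27.2% and 11.4%, and Hp in Ly6c2 Chil3 cells, at 52.2%.

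Members were then compared between classes by their log2 ratio of CPM. In macrophages and monocytes together (4438 cells) against all fibroblasts (1332 cells, without the 401 tenocytes), 6 of 9 members were 2-fold or more higher and 1 was lower, where 19.9% of 8388 genes at or above 10 CPM in the 2 groups pooled were that much higher and 17.8% that much lower. The median log2 ratio was 1.48 over the members and 0.02 over all genes tested. The pools were built differently. All fibroblasts included 113 cells that passed no subset gate, while 963 myeloid cells without a subset gate and 187 with 2 were left out. The higher genes were Slc11a1 (log2 ratio 4.54, 95% interval 4.24 to 4.86), Tfrc (2.83, 2.60 to 3.07), Trf (2.07, 2.01 to 2.13), Ftl1 (1.79, 1.78 to 1.80), Slc40a1 (1.48, 1.22 to 1.75) and Hmox1 (1.33, 1.28 to 1.38). Of the 1048 Slc40a1 UMIs of the macrophages and monocytes 924 came from Lyve1 Folr2 cells. Without that class Slc40a1 was 4.84 CPM against 6.69 in fibroblasts (-0.47), and Hp joined the higher genes (1.16). With the tenocytes counted among the fibroblasts Slc40a1 was 18.7 against 9.38 CPM, just under 2-fold (0.99), and 5 members were higher. Both make-ups were chosen after the data were seen. Cp was lower in the macrophages (-1.63, -1.70 to -1.56). Fth1 differed by less than 2-fold (0.53, 0.52 to 0.54), and Hp was level at 29.3 and 28.4 CPM (0.04, -0.10 to 0.18). That level rested on few fibroblasts, and without the 1% of cells with the highest share of Hp in each class the log2 ratio was 1.21. For Slc11a1 the ratio ranged from 3.76 to 5.29 over 9 planned settings and was 1.86 in barcodes of at least 2000 but under 5000 UMIs. Its level in fibroblasts was 4.33 CPM, and the 1% of those cells with the most UMIs held 38.6% of its UMIs. In those shallower barcodes, 4 of the 6 higher members did not reach 2-fold (Hmox1 at 0.65, Slc40a1 at -0.03, Tfrc at 0.49 and Trf at 0.73), while Fth1 (1.11) and Hp (2.46) did. Those barcodes held more RNA of other lineages.

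Gpnmb Fabp5 macrophages, the lipid-associated type, were compared with Lyve1 Folr2 macrophages, the type known as resident. Of the 9 members 4 were 2-fold or more higher in Gpnmb Fabp5 cells, where 6.83% of 7659 genes were, and 4 were lower, where 18.2% of genes were. The higher genes were Fth1 at a log2 ratio of 1.41 (1.40 to 1.42), Ftl1 at 1.13 (1.12 to 1.14), Slc11a1 at 1.18 (1.09 to 1.27) and Hp at 6.52 (5.73 to 7.44). The lower genes were Tfrc at -1.20 (-1.37 to -1.03), Trf at -1.91 (-1.98 to -1.84), Slc40a1 at -1.93 (-2.28 to -1.61) and Cp at -5.12 (-5.74 to -4.56). Hmox1 differed little (-0.29, -0.33 to -0.24). The median log2 ratio was -0.29 over the members and -0.15 over all genes tested, and the members lay on both sides of it. The size of the Slc40a1, Cp and Hp differences depended on settings. Slc40a1 fell to -4.31 without the 1% of cells with the highest share of it, and over the 9 planned settings Cp ranged from -6.15 to -4.21 and Hp from 4.81 to 8.06. In barcodes of at least 2000 but under 5000 UMIs 8 members still passed 2-fold, with Cp at -1.53, Hp at 1.24 and Slc40a1 at -2.56, and Hmox1 was 0.25, in the other direction. There the Slc40a1 value rests on 3 UMIs in 122 Gpnmb Fabp5 cells and 5 in 28 Lyve1 Folr2 cells. Fibroblast markers were at 1768 and 494.5 CPM in these cells, and no share of all genes is given for them.

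Ly6c2 Chil3 monocytes, the type known as recently recruited, were compared with the same Lyve1 Folr2 cells, so both comparisons share that class. Only Hp was 2-fold or more higher (log2 ratio 9.56, 8.78 to 10.47), where 6.99% of 7742 genes were, and 4 members were lower, where 20.8% of genes were. The lower genes were Trf (-1.91, -2.02 to -1.80), Tfrc (-1.97, -2.34 to -1.62), Cp (-5.69, -7.13 to -4.56) and Slc40a1, which had 0 UMIs against 30.3 CPM. With 3 counts taken as the floor of the monocyte class it was at least 35.3-fold lower, a log2 ratio of -5.14, while the exact 95% interval reaches up to -4.84 and the floor gives -4.61 among cells with at least 10000 UMIs. Hmox1 (-0.59, -0.68 to -0.51), Ftl1 (-0.44), Fth1 (0.42) and Slc11a1 (0.76, 0.61 to 0.91) stayed within 2-fold. Median log2 ratios were -0.59 over the members and -0.16 over all genes tested. The Hp ratio rests on 13 UMIs in Lyve1 Folr2 cells and ranged from 8.16 to 11.57 over 9 planned settings, while Cp ranged from -8.07 to -5.63. In barcodes of at least 2000 but under 5000 UMIs (16 of the Ly6c2 class and 28 of the Lyve1 class) only Hp (4.85) and Trf (-1.26) passed 2-fold, and Cp (-0.64) and Tfrc (-0.79) did not. Slc40a1 could not be judged there, with 0 UMIs in the Ly6c2 class and 5 in the Lyve1 class.

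**Figure D4:**
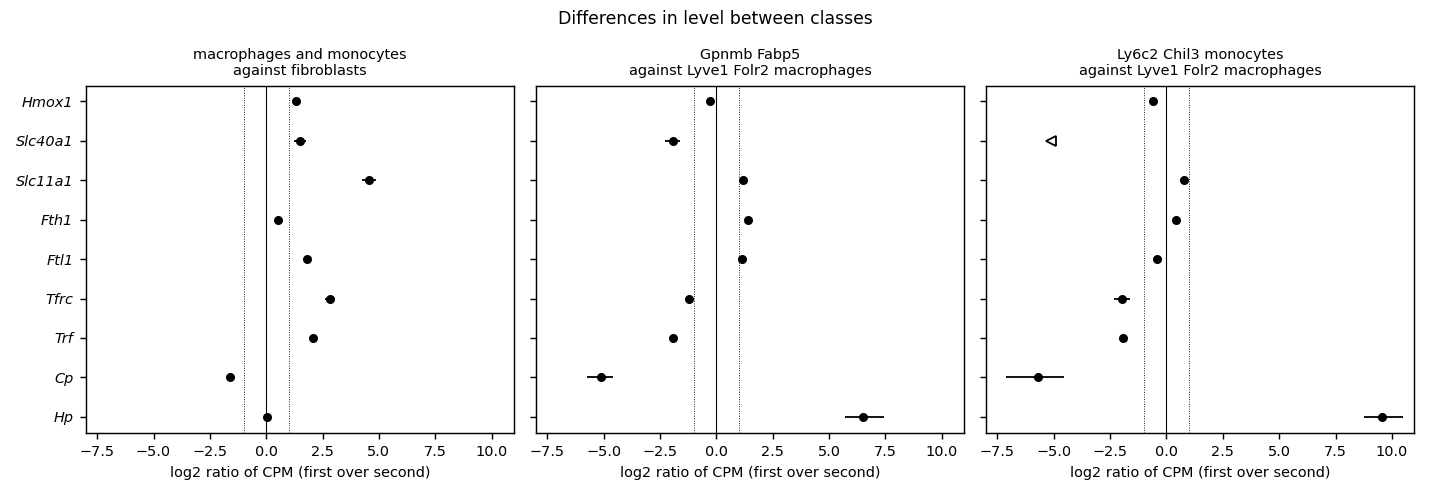
Log2 ratios of CPM (first class over second) of 9 members in 3 comparisons, with exact 95% intervals and dotted lines at 2-fold. The open triangle is a bound for Slc40a1, which had 0 UMIs in Ly6c2 Chil3 monocytes. Hp lies far to the right in the comparisons with Lyve1 Folr2 macrophages, at 6.52 and 9.56, and Cp far to the left, at -5.12 and -5.69.

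MHC class II high C1q macrophages mostly lay between these types. Against Lyve1 Folr2 macrophages their log2 ratio was -3.07 for Slc40a1 (-3.54 to -2.62), -2.44 for Cp (-2.66 to -2.23), -1.05 for Tfrc (-1.20 to -0.90) and 4.37 for Hp (3.54 to 5.33), while Fth1 was level at 0.05 (0.04 to 0.06). In cycling myeloid cells against Lyve1 Folr2 macrophages the log2 ratio was -0.82 for Fth1 (-0.85 to -0.80), -1.05 for Tfrc (-1.33 to -0.77) and -1.91 for Slc40a1 (-2.54 to -1.33). Between the dendritic cell classes Fth1 differed clearly, at 2019.5 CPM in cDC1 and 6055 CPM in the Cd209a Flt3 class (-1.58, -1.64 to -1.53).

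Within classes most pairs of members were found together about as often as unrelated detection would give. Of 2391 thinned Lyve1 Folr2 cells, 223 held both Hmox1 and Slc40a1 UMIs, where unrelated detection would give 235, 237 held both Slc11a1 and Tfrc, where it would give 208, and 79 held both Slc40a1 and Cp, where it would give 74.2. Among Ly6c2 Chil3 cells 86 held both Hp and Trf, where it would give 81.9. Of 5 pairs correlated over cells, the ferritin chains gave a Spearman rho of 0.45 over the 2391 Lyve1 Folr2 cells, 0.52 over 566 Gpnmb Fabp5 cells and 0.27 over 322 Ly6c2 Chil3 cells, while Hmox1 and Fth1 gave 0.04, 0.25 and 0.25. The cells share 1 library and 1 thinned depth, and the values are descriptions. Across the 15 classes with at least 50 cells, which share that library too, the genes whose log2 levels most resembled a member were Cndp2 (Pearson r 0.94) and the chemokines Ccl7 (0.94) and Ccl2 (0.92) for Hmox1, Gga1 (0.96) and the vacuolar ATPase gene Atp6v1b2 (0.94) for Slc11a1, Pepd (0.98) for Tfrc, Kcnt2 (0.92) for Cp, Lpl, lipoprotein lipase (0.90), for Fth1, Ccnk (0.88) for Trf, Vegfb (0.85) for Slc40a1 and Cdc42ep2 (0.82) for Hp. Ftl1 was most like Ftl1-ps1 (0.99), with which it shares sequence, and next Atp6v1b2 (0.94). These are the highest values of 9835 genes compared over only 15 classes, without a background r beside them, and are descriptions. For Slc40a1 and Hp several of those classes had 0 UMIs.

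Of 61 other genes of iron and heme handling in 7 lists, 36 reached 10 CPM over macrophages, monocytes and fibroblasts pooled, 9 of them 2-fold or more higher in the macrophages and monocytes and 7 lower, where 19.9% and 17.8% of all genes were. In Gpnmb Fabp5 against Lyve1 Folr2 macrophages 4 of 35 were higher and 4 lower, where 6.83% and 18.2% of all genes were, and in Ly6c2 Chil3 monocytes against Lyve1 Folr2 macrophages 1 of 35 was higher and 10 were lower, where 6.99% and 20.8% were. These counts are small and were not tested against the shares of all genes. Genes were named where they reached 50 CPM in a class and differed at least 4-fold between the highest and lowest class, and for them highest means among the 15 classes with at least 50 cells, which leaves out endothelial cells and smooth muscle cells and pericytes. Of the 9 measured genes of heme uptake, transport, breakdown and its control, 4 were 2-fold or more higher in macrophages and monocytes (Cd163, Hmox2, Blvra and the repressor gene Bach1), where 19.9% of all genes were, and Abcg2, named after its values were seen, was lower. Cd163, the receptor for hemoglobin bound to haptoglobin, was 787 CPM in Lyve1 Folr2 macrophages, 232 in MHC class II high C1q macrophages, 19.3 in Gpnmb Fabp5 macrophages and 6.57 in Ly6c2 Chil3 monocytes, the reverse of the order of Hp. Hmox2, the constitutive heme oxygenase, was highest in Lyve1 Folr2 macrophages at 116 CPM. The biliverdin reductase genes Blvra and Blvrb, which act after Hmox1, were 186 and 388 CPM in Lyve1 Folr2 macrophages and 80.6 and 85.7 CPM in Ly6c2 Chil3 monocytes. Slc48a1, the heme transporter of the phagolysosome, was highest in Gpnmb Fabp5 macrophages at 76.5 CPM, against 38.8 CPM in Lyve1 Folr2 macrophages. Bach1, the heme-sensing repressor of Hmox1, lay between 212 and 466 CPM in the 4 macrophage and monocyte classes and at 89.8 CPM in fibroblasts.

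Of the 6 measured genes of iron uptake and reduction, 2 were higher in macrophages and monocytes and 4 lower, beside 19.9% and 17.8% of all genes. Between Gpnmb Fabp5 and Lyve1 Folr2 macrophages, 1 of 5 was 2-fold or more higher, Lrp1 at 350 against 141 CPM (log2 ratio 1.31, 1.24 to 1.37), and 2 were lower, Slc11a2 (-1.42) and Hfe (-2.23), beside 6.83% and 18.2% of all genes. Slc11a2, the endosomal iron transporter, and Hfe, which binds the transferrin receptor, were highest in Lyve1 Folr2 macrophages at 149 and 99.6 CPM. Fibroblasts held the metalloreductase genes Steap4 (333 CPM against 3.54 in macrophages and monocytes) and Steap3 (191 against 19.0), and Lrp1, a receptor for heme bound to hemopexin among many ligands (684 against 191). Tenocytes were highest in Lcn2, which binds iron-laden siderophores, at 156 CPM and in the reductase gene Cybrd1 at 59.9 CPM. Satellite cells and myoblasts were highest in the transporter gene Slc39a14, at 158 CPM, and in Bmp6, a ligand known for inducing hepcidin in liver, at 200.1 CPM. Bmp2 was 83.4 CPM in Lyve1 Folr2 macrophages and had no UMI in Ly6c2 Chil3 monocytes. Hepcidin itself (Hamp, chosen after its values were seen) was at most 0.969 CPM in any of the 15 classes with at least 50 cells.

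Of the genes that turn over or sense stored iron, Ncoa4, the receptor that takes ferritin to the lysosome, was 97.1 CPM in Lyve1 Folr2 and 83.5 CPM in Gpnmb Fabp5 macrophages but 21.4 CPM in Ly6c2 Chil3 monocytes. The iron regulatory protein genes Aco1 and Ireb2, whose products bind the hairpins shown above and which were added after their values were seen, were even, at 20.6 to 24.7 and 23.1 to 25.2 CPM over the 4 macrophage and monocyte classes. In the list of Nrf2 and its targets, 3 of 6 measured genes (Slc7a11, Gclm and Srxn1, the last named after its values were seen) were 2-fold or more higher in Gpnmb Fabp5 than in Lyve1 Folr2 macrophages, where 6.83% of all genes were. Nfe2l2, Gclc and Txnrd1 stayed within 2-fold, as Hmox1 did, at log2 ratios of -0.13, -0.39 and 0.50. Slc7a11, the cystine transporter, was 661 CPM in Ly6c2 Chil3 monocytes, 438 in Gpnmb Fabp5 macrophages and 22.6 in Lyve1 Folr2 macrophages, although Hmox1 was highest in the last of these. The glutathione synthesis genes Gclm and Gclc were highest in fibroblasts (94.0 CPM in the Gdf10 subset and 369 CPM in the Pi16 subset), and thioredoxin reductase gene Txnrd1 in Gpnmb Fabp5 macrophages at 421 CPM. Gclm was 86.1 and 38.1 CPM in the Gpnmb Fabp5 and Lyve1 Folr2 classes, and Nfe2l2, which encodes Nrf2, 404 and 441 CPM. None of the 4 heme synthesis and 4 mitochondrial genes measured passed 2-fold between these 2 classes, where 6.83% of all genes were higher and 18.2% lower. Nor did the 6 measured genes of ferritin turnover, iron chaperoning and iron sensing, a list without the ferritin chains. Alas1, the first enzyme of heme synthesis, was highest in Gpnmb Fabp5 macrophages at 91.1 CPM. Against 46.0 CPM in Lyve1 Folr2 macrophages it was just under 2-fold, with an interval across that threshold (log2 ratio 0.99, 0.86 to 1.11).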

How the data were processed

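Cells from denervated hind limb muscle were sorted for GFP and sequenced with 10x 3′ chemistry. The deposited matrix of the GFP+ library at 7 days holds UMI counts, unnormalized, which the authors made with Cell Ranger. The file header names cellranger 8.0.1 and the submitters' processing notes Cell Ranger 7.1.0 and Seurat 4.30, and the study names more than one mouse build. The GFP- matrix served only to count shared barcodes.

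Barcodes with at least 5000 UMIs, 200 genes and under 10% mitochondrial UMIs were kept (8701 of 36400) and gated by 9 lineage and 14 subset gates on marker UMIs. The 504 barcodes (5.79%) that passed gates of 2 lineages, as doublets would, were left out of the classes, and Scrublet in scanpy 1.11.5 was an alternative. Counts were summed by class (python 3.11.15, numpy 2.4.6, pandas 2.3.3, scipy 1.17.1) and scaled to CPM, with exact Poisson intervals for levels, exact conditional intervals for ratios and Clopper-Pearson intervals for shares. Genes at 10 CPM or more over both classes were compared at a 2-fold threshold, and a class at 0 was set to 3 counts in all for a bound. Likeness is Pearson's r of log2(CPM + 1) for genes at 20 CPM or more in a class. Cp overlaps Hps3 on the opposite strand, Slc40a1, Fth1, Ftl1, Tfrc and Trf overlap predicted genes there, and Ftl1 also Gm56125 on its own strand. The study states default Cell Ranger counting, which takes reads of the sense strand, so the overlap that could not be told apart is that of Ftl1 with Gm56125. The scripts were tested on simulated data. The members and gene lists were chosen with earlier results of these data known, and the gate thresholds were set after the values were seen. Other genes were named where they reached 50 CPM in a class and differed 4-fold between classes of at least 50 cells, and for likeness the 3 genes with the highest r were taken, of which the text gives 1 to 3.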

Additional observations from a re-analysis of the deposited data

How the results depend on the processing

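The 27 log2 ratios of the members were recomputed under 9 planned settings (2 other mitochondrial limits, at least 10000 UMIs, stricter gates, no high Scrublet scores, no top 1% of cells, subtraction of the shallow-barcode profile, another denominator, a mean over cells). Of 243 values, 242 kept their direction and 242 their side of 2-fold. The exception was Hp in macrophages and monocytes against fibroblasts, at 0.04, which ranged from -0.28 with at least 10000 UMIs to 1.21 without the top 1% of cells. In barcodes of at least 2000 but under 5000 UMIs, an alternative chosen after seeing the data, 2 members in place of 5 passed 2-fold between Ly6c2 Chil3 monocytes and Lyve1 Folr2 macrophages. Slc40a1, with 0 and 5 UMIs in these classes, could not be judged. Between macrophages and fibroblasts its log2 ratio was -0.0275 in place of 1.48. In the latter comparison Hmox1 (0.65), Tfrc (0.49) and Trf (0.73) also fell under 2-fold, and Fth1 (1.11) and Hp (2.46) passed it. Those barcodes held 195 macrophages and monocytes (16 of the Ly6c2 class and 28 of the Lyve1 class) and 3931 fibroblasts, with 8 and 120 Slc40a1 UMIs. Fibroblast markers were at 1227 CPM in the former and myeloid markers at 2268 CPM in the latter, and the cause was not tested. With the tenocytes among the fibroblasts, or without the Lyve1 Folr2 class, 6 and 7 members passed 2-fold between macrophages and fibroblasts in place of 7, and Slc40a1 was at a log2 ratio of 0.99 and -0.4669. Without a filter on low levels, 18.9% of 20337 genes were 2-fold or more higher and 31.9% lower in macrophages, 9.44% and 28.8% in Gpnmb Fabp5 and 20.0% and 23.0% in Ly6c2 Chil3 cells. No paired analysis was possible because each group has 1 library.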

Other observations

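Some levels rested on few cells, and the genes that went with them were read after the values were seen. Across all 8701 cells kept, 5 cells, all myeloid, held at least 5 Slc40a1 UMIs after thinning and together 8.02% of its thinned UMIs. Spic, a transcription factor known from red pulp macrophages of the spleen, which recycle red cell iron, had a UMI in 4 of these 5 cells (423 CPM), against 336 of 3758 cells of the same classes without Slc40a1 (8.94%, 10.7 CPM). With 5 cells this is a description.

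In fibroblasts 12 of 1332 cells (0.901%), from several subsets, held 67.4% of the thinned Hp UMIs. Timp1, an inhibitor of matrix proteases, was 1221 CPM in them and 161 CPM in the cells without Hp. It was seen in all 12 and in 737 of 1281 cells without Hp (57.5%). In Apod Tenm2 Col28a1 fibroblasts the 18 cells high in Trf had Dio3, an enzyme that inactivates thyroid hormone, in 13 cells, against 13 of 74 cells without Trf (17.6%). Of satellite cells and myoblasts, 22 of 221 held 58.8% of the thinned Cp UMIs, and the chemokine Ccl19 was seen in 11 of them, against 19.0% of cells without Cp. In Lyve1 Folr2 macrophages the 55 cells with at least 10 Hmox1 UMIs held the stress cytokine Gdf15 at 743 CPM, against 292 CPM in the 332 cells without Hmox1. Detection differed less, with a Gdf15 UMI in 35 of the 55 cells and in 161 of the 332 (48.5%).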
